A study of Mus musculus with 12 samples.

Results

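The genes described here were those of 9 CC chemokines (Ccl2, Ccl3, Ccl4, Ccl5, Ccl7, Ccl17, Ccl20, Ccl22 and Ccl28) and of fractalkine, the single CX3C chemokine (Cx3cl1), in mouse endometrium. They were chosen by name as ligands that attract monocytes, dendritic cells and T cells, with earlier results of these data known. Each was read from the transcript cluster that the array annotation gives to that symbol alone. All 10 were measured, out of 19938 genes with a cluster of their own, and each had exactly 1 such cluster. Of the 10, 5 (Ccl2, Ccl5, Ccl7, Ccl28 and Cx3cl1) had a mean log2 signal at or above 7.28, the median over all 35556 clusters. The other 5 lay below it.

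Chemokines are small secreted proteins that bind G protein-coupled receptors on leukocytes and draw those cells along a gradient. The members differ in the receptor they engage and so in the cells they call. CCL2 and CCL7 act through CCR2 on inflammatory monocytes. CCL3 and CCL5 act through CCR1, among others, and with CCL4 they draw monocytes, macrophages and T cells, while CCL3 also draws mouse neutrophils. CCL17 and CCL22 act through CCR4 on T helper and regulatory T cells, CCL20 acts through CCR6, CCL28 acts through CCR10 and CCR3 and is made by mucosal epithelia, and CX3CL1 is a membrane-bound mucin-like ligand of CX3CR1 that can be shed. In the uterus, leukocyte entry after mating is a known response to seminal fluid.

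The endometrial surface layer was scraped from the uteri of CBAF1 females, the F1 offspring of CBA and C57Bl/6 mice, aged 9 to 16 wk. Intact-mated females mated with intact BALB/c males and were taken 8 h later. These males deliver sperm and seminal plasma. Vasectomized-mated females were taken 8 h after mating with BALB/c males that had been vasectomized at 6 to 8 wk of age and deliver seminal plasma without sperm. According to the paper, their ejaculate also lacks testicular, epididymal and vas deferens secretions, and the surgery may change accessory gland secretions. Between the mated groups, these cannot be told apart from sperm. Males were 12 to 28 wk old. Controls were virgin females labelled as estrus, which the methods describe as killed on the pro-estrus day at 2000 h. The hour and the point in the cycle at collection therefore differed between mated and control females along with mating, and these cannot be told apart. Each group had 4 Affymetrix arrays, and each array held a pool of RNA from 4 females (16 females per group), so that differences between individual animals within a pool were not measured. Values are log2 signals, on which a difference of 1 is a doubling.

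Array medians lay between 7.25 and 7.32, and the correlation of arrays within a group over all clusters was 0.983 or higher. Epithelial markers such as cytokeratins and stromal markers were bright, with 8 of 8 and 9 of 9 measured list genes at or above the median cluster, and T cell and NK cell markers were dim, with 1 of 13 and 0 of 8. Control arrays 1 and 2 stood apart from control arrays 3 and 4. The mean over 9 stromal genes was 10.36 and 10.33 on control arrays 1 and 2 and 9.55 and 9.51 on control arrays 3 and 4, and that over 8 blood endothelial genes was 8.19 and 8.19 against 7.33 and 7.27. For some genes below, values against each pair of controls alone are also given. In pooled tissue, fewer cells of a type and less RNA per cell cannot be told apart.

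Upstream sequence was at hand from RefSeq (GRCm38.p6) for 6 of the 10 genes, namely Ccl3, Ccl17, Ccl20, Ccl22, Ccl28 and Cx3cl1. The 4 shown are those of the genes called higher after intact mating that are not in the chromosome 11 clusters, each as the 250 bases before the annotated start, 5′ to 3′ on the gene's strand, with motif matches in capitals. The motifs searched on both strands were the κB consensus bound by NF-κB, TATAAA and the AP-1 element TGANTCA.
Ccl20, chr1:83116516-83116765, plus strand: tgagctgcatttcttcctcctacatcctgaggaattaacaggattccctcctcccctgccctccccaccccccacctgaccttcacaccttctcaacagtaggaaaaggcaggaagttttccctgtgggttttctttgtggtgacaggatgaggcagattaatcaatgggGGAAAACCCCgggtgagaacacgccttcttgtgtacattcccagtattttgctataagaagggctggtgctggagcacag
Ccl22, chr8:94745434-94745683, plus strand: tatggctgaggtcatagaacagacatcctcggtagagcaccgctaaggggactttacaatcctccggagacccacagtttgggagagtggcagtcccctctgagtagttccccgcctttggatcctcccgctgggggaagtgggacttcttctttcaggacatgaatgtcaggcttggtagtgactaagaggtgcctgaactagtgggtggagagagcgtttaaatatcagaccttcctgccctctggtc
Ccl28, chr13:119623569-119623818, plus strand: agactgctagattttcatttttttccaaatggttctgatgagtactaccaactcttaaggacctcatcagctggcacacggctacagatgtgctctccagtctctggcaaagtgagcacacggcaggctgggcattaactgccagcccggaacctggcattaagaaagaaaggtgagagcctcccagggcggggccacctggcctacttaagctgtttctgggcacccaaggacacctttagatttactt
Cx3cl1, chr8:94771930-94772179, plus strand: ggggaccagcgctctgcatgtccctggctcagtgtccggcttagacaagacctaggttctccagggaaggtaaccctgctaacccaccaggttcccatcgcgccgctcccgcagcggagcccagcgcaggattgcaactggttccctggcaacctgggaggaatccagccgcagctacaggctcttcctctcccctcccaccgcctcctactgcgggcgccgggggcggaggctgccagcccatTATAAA
The capitals in Ccl20 mark a κB match that lies on the minus strand at positions -80 to -71 from the start, and the κB consensus was found in 1 of the 6 promoters and in 7.25% of 32851 promoter windows of the same kind. The capitals in Cx3cl1 mark TATAAA at positions -6 to -1, a motif found in 12.4% of those windows. TGANTCA was in 0 of the 6 and in 6.75% of all windows. The matches are letters in these windows and were not measured as binding.

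Intact mating was compared with the unmated state first, to ask which chemokines differ when females have received whole seminal fluid. Transcripts of Ccl2, Ccl3, Ccl20, Ccl22, Ccl28 and Cx3cl1 were higher after intact mating, by 1.58-fold (Ccl22) to 2.85-fold (Ccl2), with thresholds of 1.5-fold and a limma adjusted p of 0.05. These were 6 of the 10 genes, where 1.95% of all clusters were called higher in the same comparison. None was called lower (1.55% of all clusters). With no fold threshold 7 of the 10 passed the adjusted p and were higher, as did 5.61% of all clusters. All 10 log2 fold-changes were above 0 (51.6% of all clusters), with a median of 0.71, against a median of 0.0061 over all clusters. In 8 of the 10 genes every intact-mated array lay above every control array, as in 8.05% of all clusters. Because the 10 genes were chosen with earlier results of these data known, these shares describe them and do not test the family.

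After vasectomized mating, 0 of the 10 genes met both thresholds against unmated controls (0.987% of all clusters were called higher and 0.439% lower), although 6 had an unadjusted limma p under 0.05. The median log2 fold-change was 0.37, against 0.0097 over all clusters, and 9 of the 10 values were above 0 (52.6% of all clusters). With no fold threshold 1 of the 10 passed the adjusted p, Cx3cl1 at 1.36-fold, as did 2.87% of all clusters on the higher side. In 4 of the 10 genes every vasectomized-mated array lay above every control array, as in 7.06% of all clusters. In the direct comparison of intact with vasectomized mating, again 0 of the 10 genes were called (0.394% of all clusters were called higher and 0.402% lower), and 5 had an unadjusted limma p under 0.05. With no fold threshold 1 of the 10 passed the adjusted p, again Cx3cl1, as did 1.14% of all clusters on the higher side. The median was 0.29, against -0.0018 over all clusters, and 9 of the 10 values were above 0 (49.5% of all clusters). In 3 of the 10 every intact-mated array lay above every vasectomized-mated array, as in 6.62% of all clusters. The group means stood in the order intact, then vasectomized, then control, from high to low, in 8 of the 10 genes, and in 20.0% of all clusters. The 2 comparisons with unmated females share their control arrays.

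**Figure D1:**
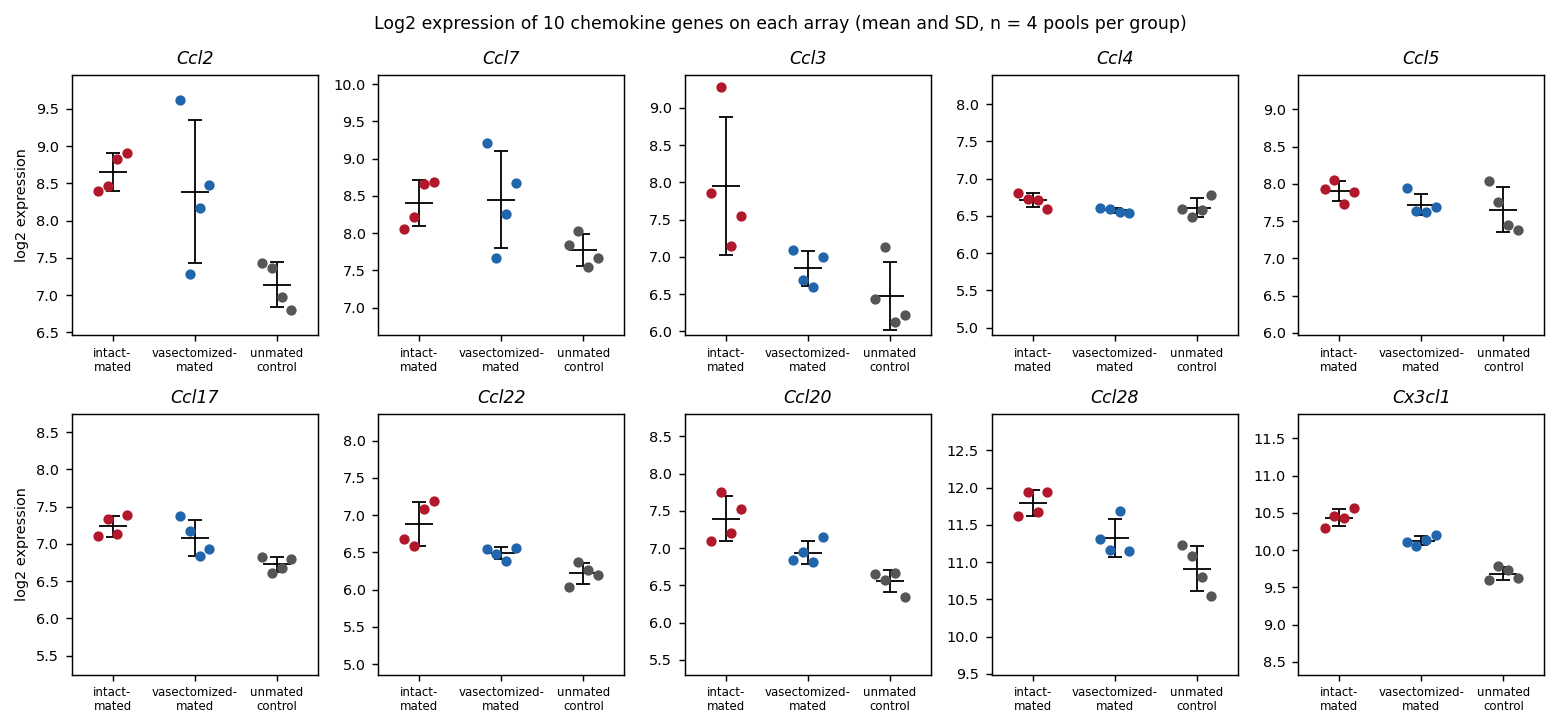
Log2 expression (vertical axes, of equal span and centred on each gene) of the 10 genes on each array, with points for intact-mated, vasectomized-mated and control pools and bars for the mean and SD (n = 4 per group). Intact-mated arrays lie above all control arrays in 8 of the 10 genes, and the vasectomized-mated arrays of Ccl2 and Ccl7 spread over 2.33 and 1.55 log2 units.

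**Figure D2:**
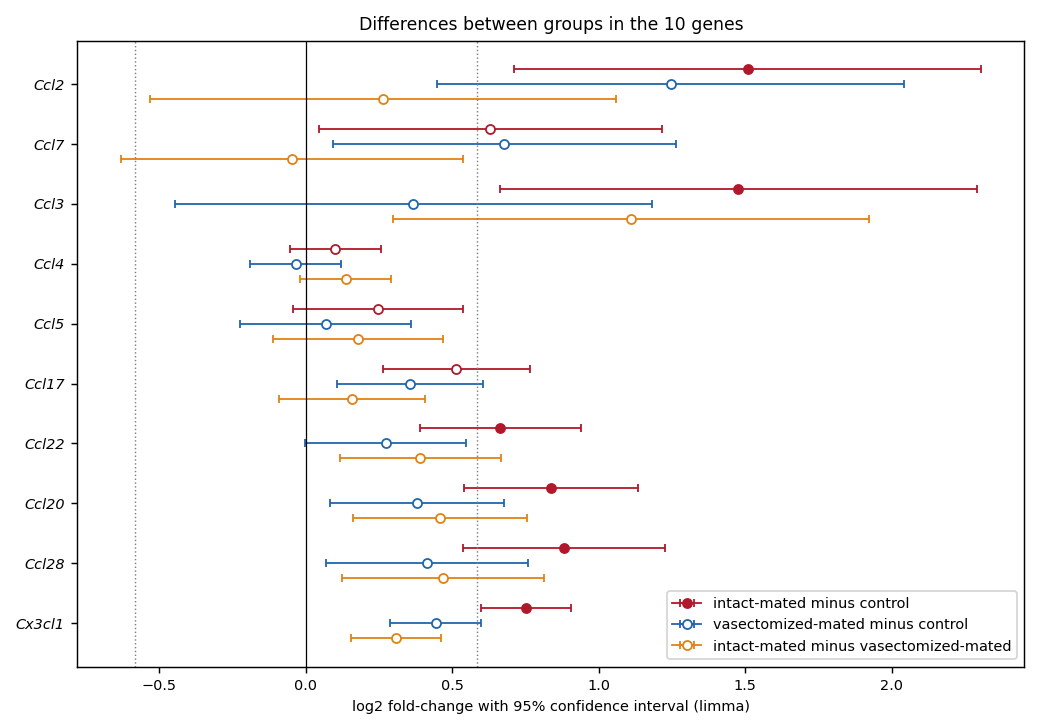
Log2 fold-change (horizontal axis) with its 95% confidence interval for the 10 genes in the 3 comparisons, filled where the gene met both thresholds and open where it did not; dotted lines mark 1.5-fold in either direction. The 6 filled points all belong to intact-mated minus control.

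Among the CCR2 ligands, Ccl2 (transcript cluster 10379511, chromosome 11) had the largest fold-change of the 10 genes. Its log2 values on the intact-mated arrays were 8.40, 8.47, 8.83 and 8.91. They were 9.62, 7.29, 8.17 and 8.48 on the vasectomized-mated arrays, and 7.43, 7.37, 6.97 and 6.81 on the control arrays. Intact-mated arrays lay in a narrow band above all controls, whereas the vasectomized-mated arrays held both the highest value of the 12 and a value below 2 of the controls. Ccl2 was 2.85-fold higher after intact mating than in controls (95% confidence interval 1.64 to 4.95; log2 fold-change 1.51, SE 0.37, limma adjusted p = 0.0210). After vasectomized mating the log2 difference from controls was 1.25 (SE 0.37, limma adjusted p = 0.0850), and that between intact and vasectomized mating was 0.26, with an interval of -0.53 to 1.06. The mean ± SD was 8.65 ± 0.26 after intact mating, 8.39 ± 0.96 after vasectomized mating and 7.14 ± 0.30 in controls (n = 4 each).

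The vasectomized-mated values of Ccl2 and Ccl7 turned on arrays 1 and 2, which pulled opposite ways. Without vasectomized-mated array 2, Ccl2 was called higher after vasectomized mating than in controls (log2 fold-change 1.61, limma adjusted p = 0.0178), as was Ccl7 (0.94, adjusted p = 0.0496). Without vasectomized-mated array 1 the log2 fold-changes were 0.84 for Ccl2 (adjusted p = 0.124) and 0.42 for Ccl7 (adjusted p = 0.388), and neither was called. The call after intact mating was lost without intact-mated array 3 (1.45, adjusted p = 0.0577), intact-mated array 4 (1.42, adjusted p = 0.0637) or control array 4 (1.40, adjusted p = 0.0574), and with control arrays 1 and 2 as the only controls (1.26, adjusted p = 0.122), and kept with control arrays 3 and 4 (1.76, adjusted p = 0.0395). Vasectomized-mated array 1, where Ccl2 and Ccl7 were highest, also had the highest list means of its group for stroma (9.94, against 9.33 to 9.62 on the other three), blood endothelium (8.08, against 7.42 to 7.50) and monocytes and macrophages (8.77, against 8.29 to 8.50). Their part in the result was not tested.

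Ccl7 (10379518), the next gene after Ccl2 on chromosome 11 and a monocyte attractant of the same receptor, had log2 values of 8.06, 8.21, 8.66 and 8.68 after intact mating. It had 9.21, 7.66, 8.26 and 8.68 after vasectomized mating, and 7.84, 8.04, 7.55 and 7.67 in controls. The lowest intact-mated array was just above the highest control, and vasectomized-mated array 2 lay among the controls. The log2 fold-change was 0.63 (SE 0.27, limma adjusted p = 0.181) after intact mating and 0.68 (SE 0.27, adjusted p = 0.198) after vasectomized mating. Between intact and vasectomized mating it was -0.048, with an interval of -0.63 to 0.54.

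Of the inflammatory ligands Ccl3, Ccl4 and Ccl5, Ccl3 was higher after intact mating, and Ccl4 and Ccl5 did not pass the test in any comparison. Ccl3 (10389231, chromosome 11), which encodes macrophage inflammatory protein 1 alpha, had log2 values of 7.85, 9.28, 7.14 and 7.56 on the intact-mated arrays, 7.10, 6.69, 6.60 and 7.001 on the vasectomized-mated arrays, and 6.44, 7.14, 6.12 and 6.22 on the control arrays. Intact-mated array 2 stood highest, and intact-mated array 3 lay only just above control array 2. Ccl3 was 2.78-fold higher after intact mating than in controls (95% confidence interval 1.58 to 4.89; log2 fold-change 1.48, SE 0.37, limma adjusted p = 0.0257). After vasectomized mating the log2 difference from controls was 0.37 (interval -0.45 to 1.18, adjusted p = 0.658), with 0.058 against control arrays 1 and 2 and 0.68 against control arrays 3 and 4. Between intact and vasectomized mating it was 1.11 (interval 0.30 to 1.92); the arrays did not overlap, and the limma adjusted p was 0.149. Without intact-mated array 2 this difference was 0.67 (adjusted p = 0.227).

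The call of Ccl3 was kept without intact-mated array 2 (log2 fold-change 1.04, adjusted p = 0.0234). It was lost without intact-mated array 1 (1.51, adjusted p = 0.0504), control array 1 (1.46, 0.0560), control array 3 (1.36, 0.0624) or control array 4 (1.39, 0.0658), and against control arrays 1 and 2 alone (1.17, adjusted p = 0.149), and kept against control arrays 3 and 4 alone (1.79, adjusted p = 0.0319). Some neutrophil markers were, like Ccl3, higher after intact mating. Of 12 measured, 5 (Cxcr2, S100a9, Csf3r, Trem1 and Il1r2) were called higher after intact mating than in controls, the same 5 were called higher than after vasectomized mating, and 0 were called after vasectomized mating against controls (unadjusted limma p under 0.05 in 0 of 12). Leaving out 1 array kept the count against controls at 5 and gave 2 to 6 called higher against vasectomized mating. The mean of the list was 6.72, 7.23, 6.88 and 7.16 on the intact-mated arrays, 6.35 to 6.59 on the vasectomized-mated arrays and 6.39 to 6.43 on the control arrays. Its highest value fell on intact-mated array 2, as did those of Ccl3, Ccl5 and Ccl20. Its lowest intact-mated value fell on array 1, where Ccl3 was higher than on intact-mated arrays 3 and 4 and Ccl20 was at its lowest intact-mated value. Ly6g, a defining neutrophil surface marker, was not higher (log2 fold-change -0.44, limma adjusted p = 0.330), and it was called lower against control arrays 3 and 4 alone (-1.002, adjusted p = 0.00112). The part of neutrophil transcripts in the Ccl3, Ccl5 and Ccl20 results was not tested.

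Ccl4 (10379721), which encodes macrophage inflammatory protein 1 beta, ranged between 6.59 and 6.81 after intact mating, 6.54 and 6.60 after vasectomized mating and 6.48 and 6.78 in controls. Each group overlapped the others, though intact-mated arrays 1, 2 and 3 lay above all vasectomized-mated arrays. The log2 difference of Ccl4 between intact and vasectomized mating was 0.14 (interval -0.021 to 0.29, limma adjusted p = 0.362). Its log2 fold-change after intact mating was 0.10 (interval -0.055 to 0.26, adjusted p = 0.466), and after vasectomized mating it was -0.035 (interval -0.19 to 0.12, adjusted p = 0.848). Neither was called with either pair of controls alone. Ccl5 (10389207), also known as RANTES and made by activated T and NK cells among others, ranged between 7.74 and 8.05 after intact mating, 7.63 and 7.94 after vasectomized mating and 7.38 and 8.04 in controls. The control arrays of Ccl5 spanned both other groups nearly in full, with arrays 1 and 2 above arrays 3 and 4. Its log2 fold-change was 0.25 after intact mating (interval -0.044 to 0.54, adjusted p = 0.310) and 0.068 after vasectomized mating (interval -0.22 to 0.36, adjusted p = 0.840). After intact mating it was 0.0073 against control arrays 1 and 2 alone (adjusted p = 0.977) and 0.49 against control arrays 3 and 4 alone (adjusted p = 0.0181, below 1.5-fold), and after vasectomized mating it was -0.17 against control arrays 1 and 2 and 0.31 against control arrays 3 and 4.

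The CCR4 ligands Ccl17 and Ccl22 were both higher after intact mating by their adjusted p, and only Ccl22 also reached 1.5-fold. Ccl22 (10574213, chromosome 8), a product of macrophages and dendritic cells, had log2 values of 6.68, 6.58, 7.08 and 7.19 on the intact-mated arrays, 6.54, 6.47, 6.39 and 6.56 on the vasectomized-mated arrays, and 6.04, 6.37, 6.26 and 6.20 on the control arrays. The 3 groups did not overlap, though intact-mated array 2 and vasectomized-mated array 4 differed by less than the spread of either group. Ccl22 was 1.58-fold higher after intact mating than in controls (95% confidence interval 1.31 to 1.92; log2 fold-change 0.66, SE 0.13, limma adjusted p = 0.00536). Without intact-mated array 4 the log2 difference was 0.56, below the fold threshold, with an adjusted p of 0.0154. The difference from controls was 0.27 after vasectomized mating (adjusted p = 0.268), and that between intact and vasectomized mating was 0.39 (interval 0.12 to 0.67, adjusted p = 0.134).

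Ccl17 (10574226), which lies close to Ccl22 on chromosome 8, had log2 values of 7.11, 7.33, 7.13 and 7.39 after intact mating, 7.38, 7.17, 6.83 and 6.93 after vasectomized mating and 6.82, 6.60, 6.67 and 6.79 in controls. Both mated groups lay above all controls, and they overlapped each other. Ccl17 was 1.43-fold higher after intact mating (log2 fold-change 0.51, SE 0.11, limma adjusted p = 0.0135). Against either pair of controls alone the value was 0.52 (control arrays 1 and 2, adjusted p = 0.0525) and 0.51 (control arrays 3 and 4, adjusted p = 0.0539). The log2 difference after vasectomized mating was 0.36 (interval 0.11 to 0.61, adjusted p = 0.114), and between intact and vasectomized mating it was 0.16 (interval -0.091 to 0.41). Among 14 dendritic cell markers, all measured, 0 were called in any of the 3 comparisons, with an unadjusted limma p under 0.05 for 1 after intact mating, 2 after vasectomized mating and 1 between them. Against control arrays 1 and 2 alone, 3 were called lower after intact mating and 1 after vasectomized mating, and against control arrays 3 and 4 alone 0 were called after either.

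Ccl20 (10347888, chromosome 1), a ligand of CCR6 that epithelia produce on microbial and cytokine signals, had log2 values of 7.10, 7.76, 7.20 and 7.52 after intact mating. It had 6.84, 6.95, 6.82 and 7.15 after vasectomized mating and 6.65, 6.57, 6.67 and 6.35 in controls. Every mated array was above every control, and vasectomized-mated array 4 reached into the intact-mated range. Ccl20 was 1.79-fold higher after intact mating than in controls (95% confidence interval 1.45 to 2.20; log2 fold-change 0.84, SE 0.14, limma adjusted p = 0.00195). The difference was 0.38 after vasectomized mating (interval 0.082 to 0.68, adjusted p = 0.156) and 0.46 between intact and vasectomized mating (interval 0.16 to 0.76, adjusted p = 0.106).

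Ccl28 (10598203, chromosome 13), the mucosa-associated epithelial chemokine, had log2 values of 11.62, 11.94, 11.67 and 11.94 on the intact-mated arrays, 11.31, 11.16, 11.69 and 11.15 on the vasectomized-mated arrays, and 11.23, 11.09, 10.80 and 10.54 on the control arrays. Vasectomized-mated array 3 was at the level of intact-mated arrays 1 and 3, and the other three vasectomized-mated arrays lay near control arrays 1 and 2. Ccl28 was 1.84-fold higher after intact mating than in controls (95% confidence interval 1.45 to 2.34; log2 fold-change 0.88, SE 0.16, limma adjusted p = 0.00368). The log2 fold-change was 0.64 against control arrays 1 and 2 alone and 1.13 against control arrays 3 and 4 alone, and it was called with either pair (adjusted p = 0.0287 and 0.00187). After vasectomized mating the difference was 0.41 (interval 0.069 to 0.76, adjusted p = 0.181). Against control arrays 1 and 2 alone that difference was 0.17 (adjusted p = 0.633), and against control arrays 3 and 4 alone it was 0.66 and called (adjusted p = 0.0385). The difference between intact and vasectomized mating was 0.47 (interval 0.12 to 0.81, adjusted p = 0.150). Of the 8 measured epithelial markers none was called in any comparison, with an unadjusted limma p under 0.05 for 2 after intact mating, 2 after vasectomized mating and 3 between them, and the list mean was 12.23 to 12.32 after intact mating, 12.21 to 12.27 after vasectomized mating and 12.22 to 12.29 in controls. Single markers differed from controls in opposite directions below 1.5-fold. The surface mucin Muc1 had log2 fold-changes of 0.32 after intact mating (adjusted p = 0.00248) and 0.29 after vasectomized mating (adjusted p = 0.0124), and the cytokeratin Krt7 had -0.35 (adjusted p = 0.0276) and -0.50 (adjusted p = 0.0104). Against control arrays 3 and 4 alone, 1 epithelial marker was called higher after intact mating, and 1 higher and 1 lower after vasectomized mating. Their part in the Ccl20 and Ccl28 results was not tested.

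Cx3cl1 (10574220, chromosome 8), fractalkine, had the smallest adjusted p of the 10 genes and the least spread among arrays relative to its change. Its log2 values were 10.29, 10.46, 10.43 and 10.56 after intact mating, 10.12, 10.06, 10.13 and 10.21 after vasectomized mating, and 9.60, 9.78, 9.73 and 9.63 in controls. The 3 groups were separate, in the order intact, vasectomized and control from high to low. Cx3cl1 was 1.68-fold higher after intact mating than in controls (95% confidence interval 1.51 to 1.87; log2 fold-change 0.75, SE 0.071, limma adjusted p = 3.46e-05). It was 1.36-fold higher after vasectomized mating than in controls (interval 1.22 to 1.51, log2 fold-change 0.44, limma adjusted p = 0.00491). Between intact and vasectomized mating it was 1.24-fold higher (interval 1.11 to 1.38, log2 fold-change 0.31, limma adjusted p = 0.0442), and over the 12 fits that each left out 1 array this adjusted p lay between 0.0289 and 0.135. The mean ± SD was 10.44 ± 0.11, 10.13 ± 0.061 and 9.69 ± 0.087 after intact mating, after vasectomized mating and in controls (n = 4 each).

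The receptors were mostly dim, with 2 of the 13 measured at or above the median cluster. After intact mating 2 were higher than in controls, after vasectomized mating 0 were (unadjusted limma p under 0.05 for 1), and 1 was higher after intact than after vasectomized mating. Ccr1, the receptor of Ccl3 and Ccl5 on neutrophils and monocytes of the mouse, had log2 values of 5.63, 6.31, 5.92 and 5.94 after intact mating, 5.52, 5.30, 5.29 and 5.35 after vasectomized mating and 4.94, 5.41, 5.06 and 5.11 in controls. It was 1.77-fold higher after intact mating than in controls (log2 fold-change 0.82, SE 0.13, limma adjusted p = 0.00191). It was also higher than after vasectomized mating (0.59, SE 0.13, adjusted p = 0.0428), a call lost in 8 of the 12 fits that each left out 1 array, with an adjusted p of up to 0.116, and with control arrays 1 and 2 as the only controls (adjusted p = 0.0543). Its highest array was intact-mated array 2, as for Ccl3, Ccl5, Ccl20, Ccrl2, Ccr4 and the means of the neutrophil and epithelial lists. The part of neutrophil transcripts in the Ccr1 result was not tested.

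Ccrl2, an atypical receptor that binds chemerin and does not signal like the others, was 2.13-fold higher after intact mating than in controls (log2 fold-change 1.09, SE 0.18, limma adjusted p = 0.00216). Ccr4, the receptor of Ccl17 and Ccl22, had log2 values of 6.01, 6.33, 6.24 and 6.19 after intact mating, 5.67, 5.87, 5.77 and 5.92 after vasectomized mating and 5.82, 5.62, 5.76 and 5.82 in controls. The intact-mated arrays were above all others, and the adjusted p passed against controls (log2 fold-change 0.44, 0.00508) and against vasectomized mating (0.38, 0.0347), with both values below 1.5-fold. The receptors of the other ligands did not pass the test after intact mating against controls. Their log2 fold-changes were -0.16 for Ccr2, -0.15 for Ccr6, 0.051 for Ccr10, 0.084 for Ccr3 and -0.14 for Cx3cr1, with limma adjusted p of 0.345 or more. Ccr7, the homing receptor of dendritic cells and naive T cells, had a log2 fold-change of 0.28 (adjusted p = 0.0763).

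**Figure D3:**
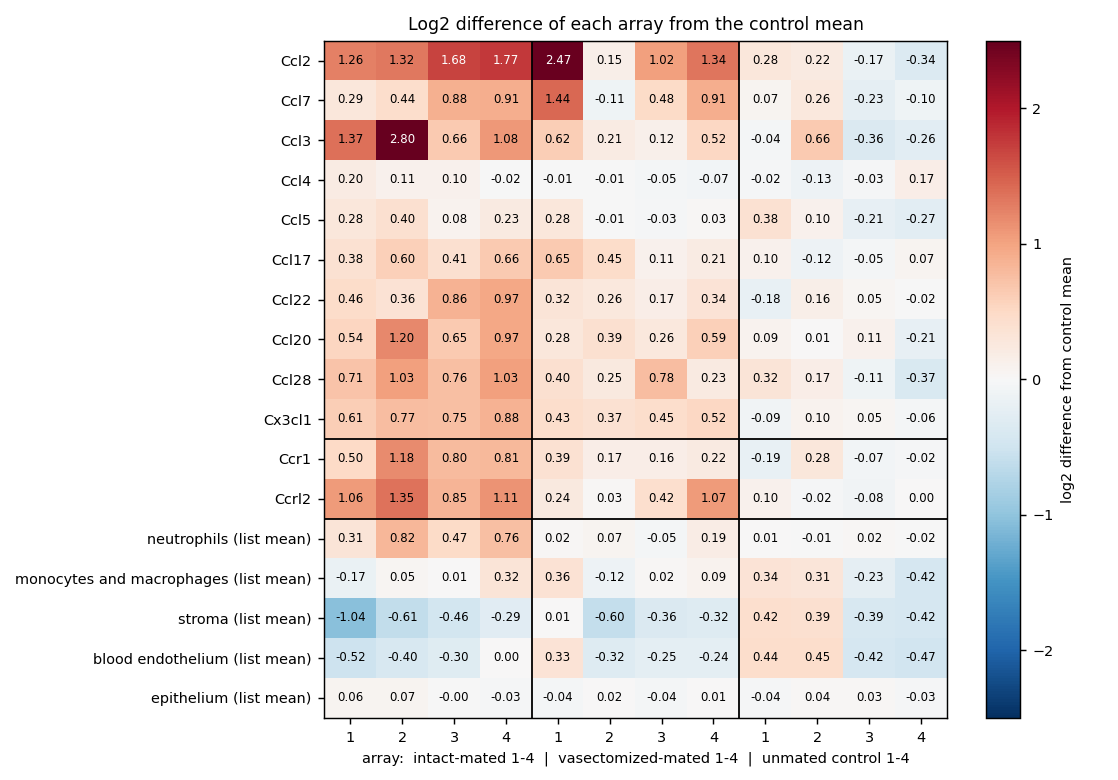
Log2 difference of each of the 12 arrays (columns: intact-mated, vasectomized-mated and control, replicates 1 to 4) from the control mean, for the 10 genes, the receptors Ccr1 and Ccrl2, and the means of 5 marker lists (rows), with red for higher and blue for lower. Ccl3, Ccl5, Ccl20, Ccr1, Ccrl2 and the neutrophil and epithelial lists have their highest value on intact-mated array 2. Ccl2 and Ccl7 have theirs on vasectomized-mated array 1. The stromal and endothelial lists divide the controls into arrays 1 and 2 and arrays 3 and 4.

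None of the other 11 measured CC and C chemokines was called in any comparison, with an unadjusted limma p under 0.05 for 1 after intact mating, 1 after vasectomized mating and 0 between them. Of the 14 listed, Ccl21a, Ccl21b and Ccl27a had no cluster with that symbol alone and were not read. The paper reports Ccl21a as lowered by intact mating and unchanged after vasectomized mating. The list leaves out the 10 genes above, which were chosen with earlier results known. Ccl9, a mouse CCR1 ligand, had the largest difference of these after intact mating (log2 fold-change 0.39, limma adjusted p = 0.0532). The 8 atypical receptors and chemokine-processing proteases held 1 call, a lower level of the scavenging receptor Ackr3 after vasectomized mating than in controls (log2 fold-change -0.59, limma adjusted p = 0.00311); after intact mating its log2 fold-change was -0.44 (adjusted p = 0.00666). The Ackr3 call fell below 1.5-fold in 4 of the 12 fits that each left out 1 array and against control arrays 3 and 4 alone (-0.52, adjusted p = 0.0191). Ackr4 was lower on every mated array than on every control, by -0.48 after intact mating, below 1.5-fold. With all arrays, none of these 8 genes was called between intact and vasectomized mating (lowest limma adjusted p 0.0840). With either pair of controls alone, Dpp4 was called lower after intact than after vasectomized mating (-0.61, limma adjusted p = 0.0167 and 0.0239). The controls enter that comparison only through the shared estimate of spread. Dpp4 was called in 2 of the 12 fits that each left out 1 array, with a limma adjusted p of 0.0269 to 0.205. Against control arrays 3 and 4 alone, Dpp4 and Ctss were called higher after vasectomized mating (0.78 and 0.76). Of 13 monocyte and macrophage markers, only Cd14, the lipopolysaccharide coreceptor, was called, and it was higher after intact mating (log2 fold-change 1.60, adjusted p = 4.65e-06) and after vasectomized mating (1.18, adjusted p = 0.000280) than in controls. The unadjusted limma p was under 0.05 for 4 of the 13 after intact mating and 3 after vasectomized mating. Cd68 was higher on every mated array than on every control (12.30 to 12.55 after intact and 12.39 to 12.53 after vasectomized mating, against 11.77 to 12.14). Mertk went the other way, lower on every intact-mated array than on every control (log2 fold-change -0.81). Against control arrays 1 and 2 alone, Mertk and C1qb were called lower after intact mating and Mertk after vasectomized mating. Of 9 stromal markers, Lum and Col1a1, which encode matrix proteins, were lower after intact mating than in controls (log2 fold-changes of -0.97 and -0.75, adjusted p of 0.00886 and 0.0434), while the stromal list mean was 8.89 to 9.65 on intact-mated arrays, 9.33 to 9.94 on vasectomized-mated arrays and 9.51 to 10.36 on control arrays. Against control arrays 1 and 2 alone 8 of the 9 were called lower after intact mating, and against control arrays 3 and 4 alone 0 were (Lum -0.69, adjusted p = 0.0774; Col1a1 -0.47, adjusted p = 0.279). The Col1a1 call was lost in 8 of the 12 fits that each left out 1 array. Markers of T cells, NK cells, B and plasma cells, eosinophils and mast cells, blood endothelium, lymphatic endothelium and smooth muscle and the reference genes held 0 calls in any comparison, with an unadjusted limma p under 0.05 for at most 3 genes of a list. Below 1.5-fold, some of these genes passed the adjusted p after intact mating against controls. The lowest limma adjusted p was 0.00320 for T cells, 0.00349 for eosinophils and mast cells and 0.00846 for B and plasma cells. For reference genes it was 0.0173. The largest T cell log2 fold-change there was 0.43, for Cd5. Between intact and vasectomized mating the lowest limma adjusted p for T cells was 0.0458. Against control arrays 1 and 2 alone, 2 NK cell, 2 blood endothelial and 1 B and plasma cell marker were called lower after intact mating.

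The positions of the genes gave neighbours for comparison. On chromosome 11, Ccl2 and Ccl7 are followed in RefSeq order by Ccl11, Ccl12, Ccl8 and Ccl1, all CC chemokines. Only Ccl2 of these 6 was called after intact mating. The log2 fold-changes were -0.087 for Ccl11, the eotaxin of eosinophils, 0.12 for Ccl12, another ligand of mouse CCR2, -0.072 for Ccl8 and -0.10 for Ccl1. Further along the chromosome, Ccl5, Ccl9, Ccl6, Ccl3 and Ccl4 follow each other, and only Ccl3 of these 5 was called. The Ccl3 and Ccl4 entries overlap in RefSeq, and their clusters gave 1.48 and 0.10.

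On chromosome 8, Ccl22, Cx3cl1 and Ccl17 are consecutive genes. All 3 passed the adjusted p after intact mating, with log2 fold-changes of 0.66, 0.75 and 0.51. The genes on either side, Pllp next to Ccl22 and Ciapin1 next to Ccl17, had log2 fold-changes of -0.26 (adjusted p = 0.357) and 0.19 (adjusted p = 0.276). Beside Ccl28 on chromosome 13, Hmgcs1, an enzyme of cholesterol synthesis, had a log2 fold-change of 1.01 (limma adjusted p = 0.0131) after intact mating and -0.13 (adjusted p = 0.820) after vasectomized mating, where Ccl28 had 0.88 and 0.41.

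**Figure D4:**
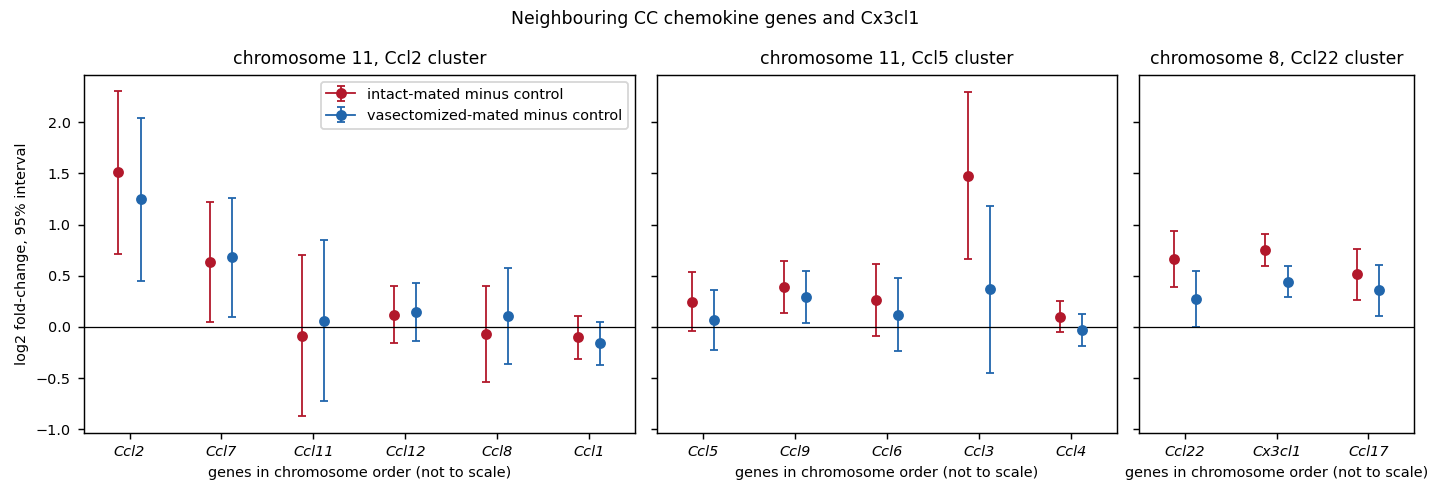
Log2 fold-change with its 95% confidence interval (vertical axis) for CC chemokine genes and Cx3cl1 in chromosome order, not to scale, after intact mating and after vasectomized mating, each minus control. After intact mating Ccl2 and Ccl3 each have the highest value of their chromosome 11 cluster, and Ccl7, which was not called, lies at 0.63. Ccl22, Cx3cl1 and Ccl17, consecutive on chromosome 8, lie between 0.51 and 0.75.

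The genes closest in pattern to each called member were found over the 12 arrays among 19937 genes. They were those with the smallest root mean square difference in log2 values after each gene was centred on its own control mean. The distance therefore depends on the size of the change from controls as well as on its pattern. For Cx3cl1 they were the zinc transporter Slc39a4 (0.0859) and the integrin subunit Itgav (0.0970). For Ccl22 they were Nupr1 (0.108) and the heparan sulfate sulfotransferase Hs6st1 (0.149), and for Ccl20 they were Il1f5, a receptor antagonist of the interleukin-36 family (0.135), and the transcription factor Foxa1 (0.147). For Ccl28 they were the guanylate-binding protein Gbp3 and the proteoglycan Srgn (0.167 each). Distances were larger for Ccl2, to Gbp5 (0.418) and the adhesion molecule Icam1 (0.432), and for Ccl3, to the interleukin-1 receptor antagonist Il1rn (0.368) and the decoy receptor Tnfrsf11b (0.372). These are descriptions of likeness in 12 shared arrays, and no test was made of them.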

How the data were processed

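RNA of 12 endometrial pools was measured on Affymetrix Mouse Gene 1.0 ST arrays from 300 ng per pool. The deposited log2 values were made by the authors in Partek Genomics Suite, with background correction by RMA, a correction for probe GC content and summarization of probes by their mean; versions of this software are not stated in what was used here. Groups were taken from the sample labels. All 35556 clusters were fitted with 1 mean per group in limma 3.58.1 (R 4.3.3, variance moderated without trend), with Benjamini-Hochberg adjustment over all clusters in each of 3 comparisons. Genes were called at 1.5-fold or more with an adjusted p of 0.05 or less. The fit was tested on simulated data. Of the clusters, 21789 had 1 symbol, 1621 several and 12146 none; none was named from a cluster with several. The number of arrays limits the precision. Per-array columns not used numbered 0.

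The 10 genes and 16 further lists were chosen with earlier results of these data known. Named were all 10 genes, the receptors of the ligands, up to 3 called genes (or the 1 gene with the largest change) of each list, and the 2 genes nearest in pattern to each called member. Hmgcs1, Pllp and Ciapin1 were named as neighbours after their values were seen, as were Trem1 and Il1r2 among the neutrophil markers and Ly6g, Muc1, Krt7, Ccl1, Ccl6, Ccl8, Ccl11 and Ccl12. Cd68, Mertk and C1qb were also named after their values were seen. Alternatives were quantile normalization, median centring, trend and robust moderation, no moderation, array weights, a replicate block, fits of 2 groups, removal of dim clusters, 1 cluster per gene, other fold thresholds, leaving out each array, and, chosen after seeing the data, either pair of controls alone.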

Additional observations from a re-analysis of the deposited data

Results flagged for a closer look

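The response of Cx3cl1 to intact mating and its response to vasectomized mating, each against the same unmated controls, differed by 0.31 on the log2 scale (limma adjusted p = 0.0442), which is a difference of 1.24-fold between intact and vasectomized mating and below the fold threshold. Every intact-mated array was above every vasectomized-mated array. Within groups, Dixon's test flagged no array in any of the 30 sets of 4 arrays. With only 4 arrays it leaves wide gaps unflagged, so it cannot show that no array stood far from the rest. Intact-mated array 2 of Ccl3 (9.28, next value 7.85) was unflagged with a gap of 0.667 of its group's range. Vasectomized-mated array 1 of Ccl2 (9.62, next value 8.48) was unflagged with a gap of 0.487 of the range.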

How the results depend on the processing

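Over the 30 differences of the 10 genes, 735 values were computed under alternatives, of which 701 kept direction and call, 17 lost a call, 6 gained one and 11 changed sign. After intact mating against controls, the count of 6 called genes was 3 of 5 testable genes without dim clusters, where fewer genes were tested, 2 at a fold-change of at least 2, 4 without variance moderation and 7 with no fold threshold, and leaving out 1 array gave 4 to 6. After vasectomized mating the count of 0 was 1 with no fold threshold (Cx3cl1), 1 with control arrays 3 and 4 only (Ccl28), and 0 to 2 when 1 array was left out. Between intact and vasectomized mating it was 1 with no fold threshold (Cx3cl1) and 0 to 0 when 1 array was left out. Ccl2 and Ccl3 lost their calls after intact mating without moderation (adjusted p = 0.0618 and 0.0712), and Ccl3 in a fit of only the 2 groups (adjusted p = 0.0722).

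Signs changed only for values that were not called. Leaving out 1 array gave -0.023 to 0.19 for Ccl5 and -0.077 to 0.023 for Ccl4 after vasectomized mating, and -0.31 to 0.21 for Ccl7 and -0.10 to 0.67 for Ccl2 between intact and vasectomized mating. With control arrays 1 and 2 only, Ccl4 was 0.039 and Ccl5 -0.17 after vasectomized mating. The cause was not tested. Averaging several clusters of a gene could give no other value, since each gene had 1. The replicate numbers did not pair the arrays (correlations of same-numbered arrays -0.26 to 0.20, and 3 of 12 arrays were closest to their own number). With the replicate block the counts were 6, 0 and 0, and the Ccr1 call between intact and vasectomized mating was lost. Dim signals limit the 5 genes below the median cluster.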
